A study of Arabidopsis thaliana with 12 samples.

Results

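AT1G76450 encodes a lumenal thylakoid protein with a PsbP domain, and AT1G74730 encodes a protein of the thylakoid grana. They are 2 of the 691 Arabidopsis thaliana genes for which GEO's annotation of the platform gave a probe of their own, among 3439 probes in all. The annotation listed 1 such probe for each of them. Both genes were chosen because their intensity was higher after treatment with sucrose on these arrays. Their difference between the groups is therefore given as a description, without a test. Total RNA of wild-type plants of the ecotype Wassilevskija was measured on 12 arrays, 6 from plants treated for 3 h in MS with 60 mM sucrose and 6 from plants treated with water. Arrays carry the numbers 1 to 6 in each group, and the labels name no tissue or age and give no time for water. MS and sucrose were given together, so the 2 cannot be told apart. Whether the arrays of a group represent different plants is not stated, so every p-value and SE below reflects the scatter among arrays alone, which could be technical.

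The thylakoid is the internal membrane of the chloroplast, where light energy is captured, and the lumen is the space that it encloses. PsbP is an extrinsic subunit of the oxygen-evolving complex of photosystem II, and land plants carry a family of related lumenal proteins with the same domain, some of which take part in assembling photosystem I or in the chloroplast NDH complex. Grana are the stacked regions of the thylakoid, rich in photosystem II and its light-harvesting antenna. In Arabidopsis, the grana protein AT1G74730 and its homologue AT5G08050 are known to affect how the antenna is organised, how grana stack and how surplus light energy is dissipated as heat. The nuclear genome encodes all of these proteins, and they are imported into the chloroplast after synthesis. In RNA of whole samples, fewer cells of a type and less RNA per cell cannot be told apart.

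Each value is a spot intensity on a linear scale of its own array, which ended at 100. The array medians differed between the groups, averaging 0.383 ± 0.0787 over the sucrose arrays and 0.177 ± 0.00806 over the water arrays (SD, n = 6 each; exact permutation test of the log2 medians, two-sided, p = 0.00216, the smallest that 924 splits allow). Those splits treat the arrays as exchangeable. With swaps only between arrays of the same number, an exact permutation test chosen after seeing the data gave p = 0.0313, the smallest that 64 swaps allow, and the median was higher in sucrose in 6 of 6 pairs. Sucrose arrays 1 and 2 had the highest medians, 0.479 and 0.490, and the other sucrose arrays lay between 0.325 and 0.342. Summed intensities lay closer together, at 3325 to 3461 on the sucrose arrays and 3172 to 3296 on the water arrays. So the groups differed in how intensity was spread over the probes, and not by 1 factor per array. Log2 differences below come from quantile-normalized values unless another scaling is named, and they run sucrose minus water. Arrays with consecutive numbers (1 and 2, 3 and 4, 5 and 6) resembled each other within both groups, so differences are also given within these number pairs. Both permutation tests of the medians count these arrays singly, so neither p-value holds for number pairs as units. None of the 12 marker genes listed for root, seed and flower had a probe of its own, and the tissue could not be checked.

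AT1G76450, the lumen protein gene, was several-fold brighter on every sucrose array than on any water array. Its intensity on the sucrose arrays was 2.52 at the lowest, 3.62 at the median and 4.07 at the highest, against 0.291, 0.448 and 0.600 on the water arrays. The groups did not overlap, and even the dimmest sucrose arrays, 5 and 6, stood clear of the brightest water array. The means were 3.38 ± 0.690 in sucrose and 0.451 ± 0.122 in water (SD, n = 6 each), a ratio of 7.50. After quantile normalization the log2 difference was 2.66 ± 0.22 (SE), a fold of 6.31, and it ranked 1 of 691 genes. Just below it in that order stood AT4G18180 at 2.45 ± 0.14 and the MADS-box gene AGL54 at 2.44 ± 0.36 (SE).

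AT1G74730, the grana protein gene, was likewise higher on every sucrose array than on any water array, from a water level close to the dim end of the scale. Its intensity on the sucrose arrays was 0.396 at the lowest, 0.540 at the median and 1.02 at the highest, against 0.0113, 0.106 and 0.134 on the water arrays. The dimmest sucrose array lay 2.97-fold above the brightest water array. Water array 3 held the lowest value, far under the other 5 water arrays, and it was the only member value below the floor of 0.0531 that was set on the scaled intensities. The means were 0.634 ± 0.242 in sucrose and 0.0969 ± 0.0445 in water (SD, n = 6 each), a ratio of 6.54. After the floor and quantile normalization the log2 difference was 1.72 ± 0.35 (SE), a fold of 3.29, and it ranked 13 of 691 genes. It was 1.41 ± 0.22 without water array 3. Its neighbours in that order were AT5G65220, a plastid ribosomal protein gene, at 1.75 and AT4G17650 at 1.74 above it, and AT1G21660 at 1.72 and AT1G12800 at 1.70 below it.

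Such a separation, with each of the 6 sucrose arrays brighter than each of the 6 water arrays, was common on this scale. It held for 38.4% of the 691 genes with the values as deposited. In the fit across all probes, 41.8% of 3439 passed an adjusted p of 0.05 (limma), 20.5% as higher in sucrose. The split depended on the scaling, with 705 higher and 731 lower after quantile normalization, 558 and 1039 with median centring, and 1848 and 227 as deposited. Both genes were chosen from this contrast, so nothing is read from their place in these shares.

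**Figure D1:**
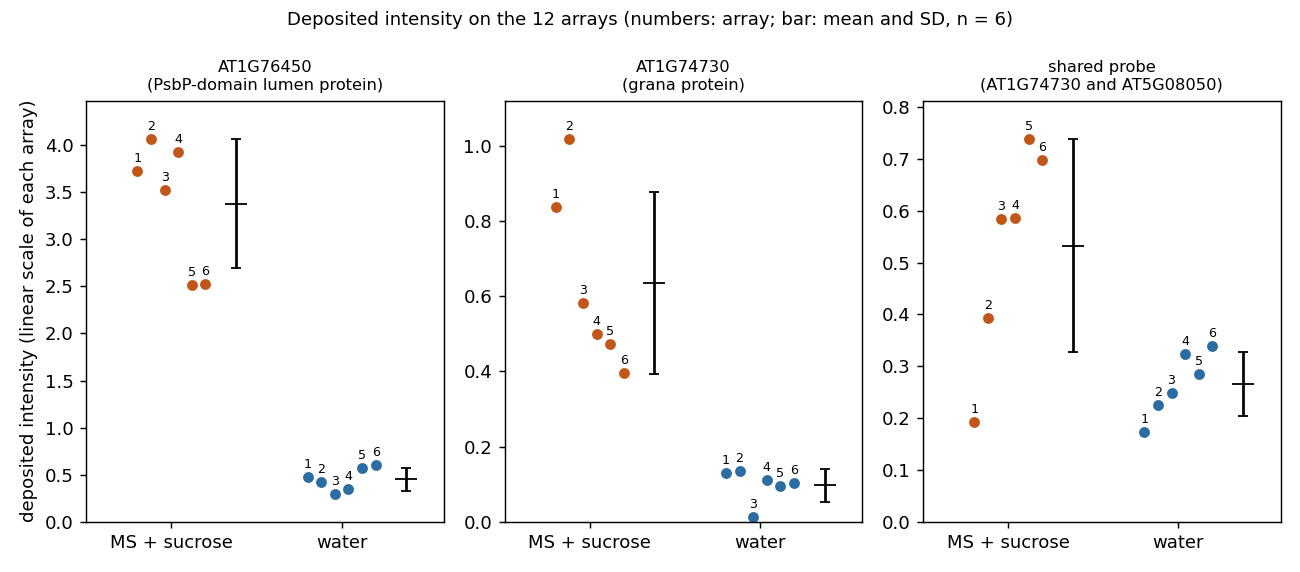
Deposited intensity (y axis, linear, starting at 0) of AT1G76450, of AT1G74730 and of the probe that the annotation pairs with both AT1G74730 and AT5G08050, on the 6 MS with sucrose arrays and the 6 water arrays. Numbers are array numbers, and bars are mean and SD. AT1G76450 and AT1G74730 do not overlap between the groups, whereas on the shared probe sucrose array 1 lies among the water arrays.

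A probe's place among all probes of its own array does not depend on how arrays are scaled, and this readout was chosen after the values had been seen. AT1G76450 stood between the 95.4 and 97.5 percentile on the sucrose arrays, with a median of 97.2, against 68.5 to 82.2 with a median of 78.1 on the water arrays. It was thus among the brightest probes on every sucrose array and above most probes on every water array. AT1G74730 stood between the 57.3 and 83.8 percentile on the sucrose arrays, with a median of 68.8, against 15.2 to 41.7 with a median of 33.0 on the water arrays. It was in the upper part of each sucrose array and in the lower part of each water array. On this measure the groups did not overlap for either gene, a separation that 11.9% of the 3439 probes showed in this direction. The order of the 2 genes turned round on this measure. The median percentile of AT1G74730 was 35.7 points higher in sucrose and ranked 11 of 691 genes, whereas that of AT1G76450 was 19.1 points higher and ranked 68, with little room left above it.

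**Figure D2:**
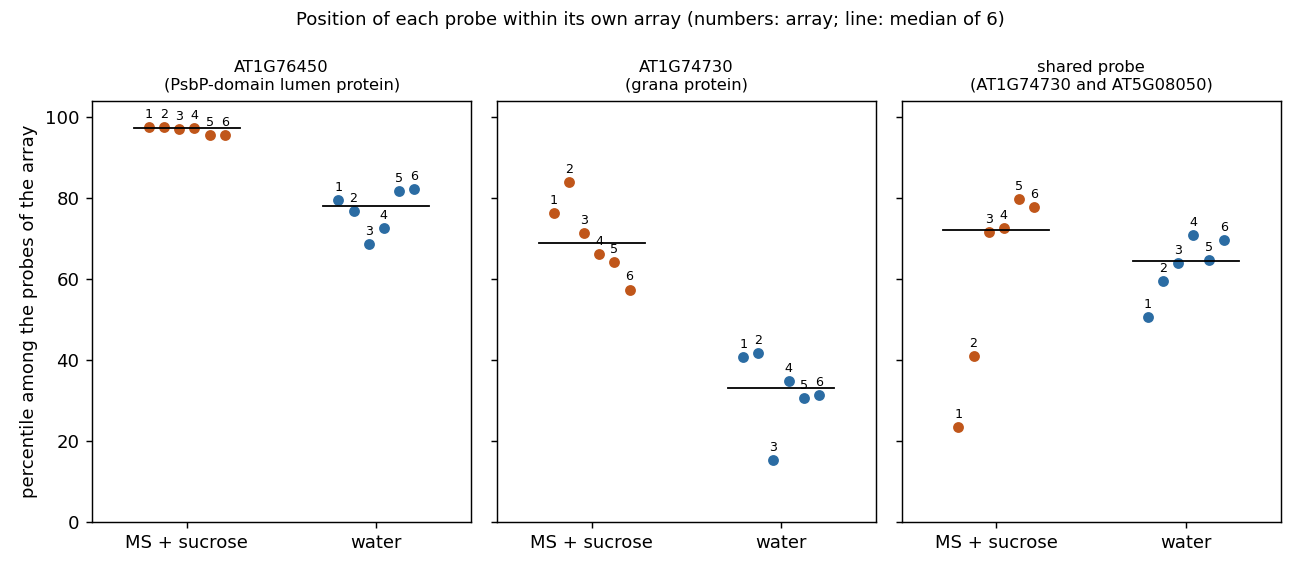
Percentile of each probe among the 3439 probes of the same array (y axis) for AT1G76450, AT1G74730 and the probe shared by AT1G74730 and AT5G08050, on MS with sucrose arrays and water arrays. Lines are medians of 6 arrays. AT1G76450 sits at or above 95.4 on the sucrose arrays, and AT1G74730 has medians of 68.8 in sucrose and 33.0 in water.

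Under all 4 scalings both genes were higher in sucrose, by amounts that moved with the scaling. For AT1G76450 the log2 difference was 2.93 ± 0.20 as deposited, 2.77 ± 0.20 with cyclic loess and 1.83 ± 0.17 with median centring (SE). Its rank among the 691 genes was 6, 1 and 8 under these scalings. For AT1G74730 the log2 difference was 2.63 ± 0.31 as deposited, 1.56 ± 0.30 with cyclic loess and 1.61 ± 0.32 with median centring, at ranks 11, 15 and 14. The log2 differences as deposited left out the scaling between arrays but kept a floor. That floor raised the value of AT1G74730 on water array 3. The median log2 difference over all probes was 0.68 as deposited and -0.06 with median centring, so the difference as deposited includes that shift. AT1G74730 lies near the dim end of the water arrays, and adding 0.2 to the scaled value in place of a floor took its difference to 0.99 ± 0.18, against 2.33 ± 0.19 for AT1G76450.

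**Figure D3:**
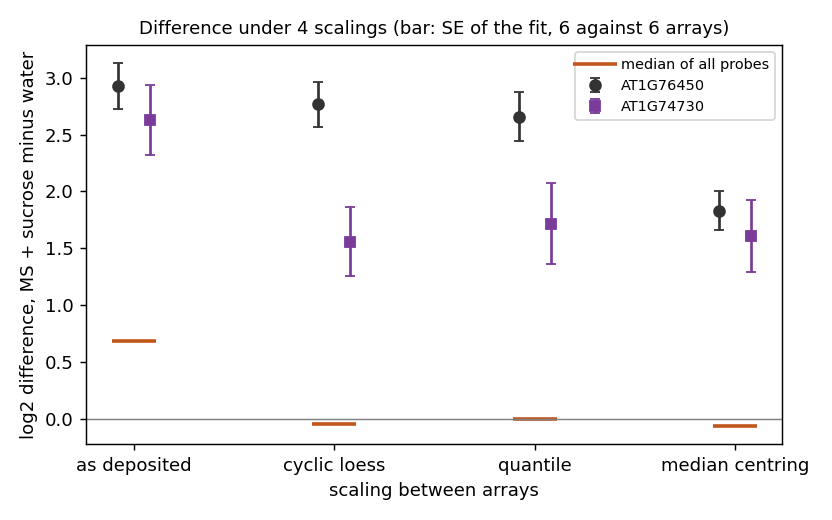
Log2 difference, MS with sucrose minus water (y axis), of AT1G76450 and AT1G74730 under 4 scalings between arrays, with SE bars. The horizontal marks are the median of all 3439 probes. All 4 scalings, also that of the values as deposited, include a floor for low values. AT1G76450 is lowest with median centring, at 1.83, and AT1G74730 is highest as deposited, at 2.63.

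The size of the difference varied with the array number. For AT1G76450 the log2 difference between same-numbered arrays was 2.90 for number 1, 3.11 for number 2, 3.18 for number 3 and 3.16 for number 4, but 1.82 for number 5 and 1.77 for number 6. Arrays 5 and 6 were the dimmest for this gene in sucrose, at 2.52 and 2.53, and the brightest in water, at 0.570 and 0.600. The fit within each number pair gave 3.01 ± 0.07, 3.17 ± 0.12 and 1.80 ± 0.02 in ascending order of the numbers (SE, 2 arrays against 2), so the spread between number pairs exceeded that inside them. For AT1G74730 the log2 difference was 1.47 for number 1, 1.88 for number 2, 3.24 for number 3, 1.25 for number 4, 1.39 for number 5 and 1.08 for number 6. The value for number 3 rests on the water array at the floor. Within the number pairs it was 1.67 ± 0.21, 2.24 ± 0.79 and 1.24 ± 0.12. Among sucrose arrays this gene was brightest on arrays 1 and 2, at 0.838 and 1.02, the arrays that also had the highest medians. What part the difference in medians had in that was not tested. Without numbers 1 and 2 in either group the differences were 2.56 ± 0.28 for AT1G76450 and 1.77 ± 0.41 for AT1G74730.

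The grana protein gene also appears on a further probe, which the annotation pairs with AT1G74730 and with its homologue AT5G08050, and whose signal cannot be assigned to either. Its intensity was 0.193 at the lowest, 0.586 at the median and 0.739 at the highest on the sucrose arrays, against 0.174, 0.267 and 0.339 on the water arrays. On 5 of 6 sucrose arrays it lay above all water arrays. Between arrays of the same number its deposited intensity was higher in sucrose throughout, from 1.11-fold for number 1 to 2.58-fold for number 5. After quantile normalization its log2 difference was -0.09 ± 0.43 (SE; limma, adjusted p = 0.970). The pattern over arrays was unlike that of the probe of AT1G74730 alone, since sucrose arrays 1 and 2, the brightest for AT1G74730, were the dimmest here, at 0.193 and 0.393. After quantile normalization its differences by number were -1.40, -0.71, 0.34, 0.09, 0.73 and 0.40 for arrays 1 to 6 in turn. So the 2 probes that the annotation links to AT1G74730 gave different results on these arrays, and which transcript dominates the shared probe was not tested.

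**Figure D4:**
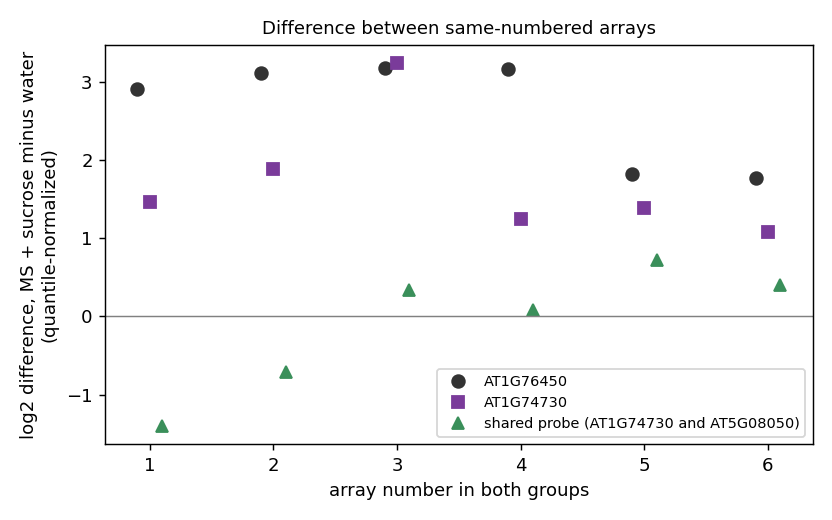
Log2 difference between the MS with sucrose array and the water array of the same number (y axis) against array number, for AT1G76450, AT1G74730 and the shared probe, after quantile normalization. AT1G76450 lies between 2.90 and 3.18 for numbers 1 to 4 and at 1.82 and 1.77 for numbers 5 and 6, and the shared probe lies below 0 for numbers 1 and 2.

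The values of the 2 genes were correlated over the 12 arrays, but did not move together among the water arrays above the floor. Pearson's r between their normalized log2 values was 0.89 over 12 arrays, which share the difference between the groups, and 0.62 between deviations from the group means, which share the resemblance of consecutive arrays. Over the 6 sucrose arrays r was 0.80 and over the 6 water arrays 0.61. Water array 3 was the lowest water array for both genes, at -1.13 for AT1G76450 and at the floor, -4.23, for AT1G74730. The r of 0.61 and the r of 0.62 include this array. Among the other water arrays, AT1G76450 was highest on arrays 5 and 6 (-0.44 and -0.40), where AT1G74730 was lowest (-2.70 and -2.65). Among the 487 genes above the floor on all 12 arrays, those most like AT1G76450 over the 12 arrays were AT5G56070 (r = 0.98), AT4G22190 (0.98), AT4G17650 (0.98), the pentatricopeptide repeat gene AT3G59300 (0.97) and AT4G24090 (0.97). With deviations from the group means their r to AT1G76450 was 0.79, 0.79, 0.57, 0.70 and 0.68 in the same order. Those most like AT1G74730 were AT4G09040 (0.93), AT3G59300 (0.93), AT5G27860 (0.91), AT5G56070 (0.91) and AT1G34270 (0.90), with r of 0.80, 0.79, 0.76, 0.68 and 0.65 between deviations. AT3G59300 and AT5G56070 stood in both groups of 5. An r above 0.9 to AT1G76450 was shared by 43 of the 487 genes, and to AT1G74730 by 8. These correlations are descriptions of 12 arrays.

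The lists of related genes held 119 genes besides these 2, by locus, and 10 of them had a probe of their own. Of the 10, 3 rose, 2 fell and 5 did not pass (limma, adjusted p under 0.05 over all probes), against 44.0% of the 691 genes that passed in either direction, 23.3% as higher and 20.7% as lower, so the share that passed is near the background. The tally moved with the scaling. With median centring 7 passed, 1 as higher and 6 as lower, as deposited 4 passed, all as higher, and with cyclic loess 5 passed, 4 as higher and 1 as lower. The median log2 difference over the 10 was 0.05, beside 0 over the 691 genes. With each number pair averaged, 3 arrays against 3, none of the 10 passed in limma and 4 had an unadjusted p under 0.05. Under all 4 scalings, 1 of the 10 passed as higher and none as lower. None of the 10 further PsbP family genes on the list had a probe of its own, so AT1G76450 could not be set beside its relatives.

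Of the 33 other lumen protein genes on the list, 5 were measured, 2 of which rose, 1 fell and 2 did not pass. AT5G35100, which encodes a cyclophilin-type peptidyl-prolyl isomerase, was at 0.427, 0.775 and 1.02 on the sucrose arrays, against 0.171, 0.195 and 0.214 on the water arrays (lowest, median and highest intensity). Its groups did not overlap, which as deposited held for 38.4% of the 691 genes, and also for AT1G74070, FZL and AT1G54500 below. AT5G35100 rose by 0.98 ± 0.18 on the log2 scale (SE, limma adjusted p = 0.00153). This was the gene that passed under all 4 scalings, from 0.77 with median centring to 1.87 as deposited, with an adjusted p of 0.0640 when number pairs were averaged. Within numbers 5 and 6 alone it did not pass (0.52, limma adjusted p = 0.204). AT1G74070, of the same enzyme family, averaged 1.12 ± 0.111 in sucrose and 0.484 ± 0.0420 in water (SD, n = 6 each) and rose by 0.62 ± 0.13 (SE, limma adjusted p = 0.00253). With median centring it was at 0.11 (adjusted p = 0.650), and with number pairs averaged its adjusted p was 0.0630. Within numbers 1 and 2 alone it did not pass (0.25, limma adjusted p = 0.509).

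LPA19, a Psb27 homologue that acts in maturation of the photosystem II protein D1, fell by 1.06 on the log2 scale (SE 0.32, limma adjusted p = 0.0207). As deposited its intensity averaged 0.257 ± 0.121 in sucrose and 0.218 ± 0.0184 in water (SD, n = 6 each), a log2 difference of 0.04, so its fall is relative to the other probes. Sucrose array 3 was its dimmest, just above the floor, and without that array the difference was -0.75 (limma adjusted p = 6.5e-04). With number pairs as a random block LPA19 had an adjusted p of 0.0911, and without numbers 1 and 2 of 0.0851. PSB27, an assembly factor of photosystem II, differed by -0.44 ± 0.68 (limma adjusted p = 0.683), by 0.04 without sucrose array 2 and by 0.30 without numbers 1 and 2 (adjusted p = 0.0283). Within numbers 1 and 2 alone it passed in the opposite direction, at -1.92 (limma adjusted p = 0.0392). PSAN, the lumenal subunit of photosystem I, differed by 0.29 ± 0.12 (limma adjusted p = 0.0672) and passed as higher without sucrose array 3 (0.35, adjusted p = 0.0312) and with cyclic loess (0.33, adjusted p = 0.0325), but as lower with median centring (-0.90, adjusted p = 0.00534).

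In the list of grana architecture and light-harvesting regulation, 1 of the 20 genes besides AT1G74730 was measured. FZL, a dynamin-related protein that shapes thylakoid stacks, differed by -0.03 ± 0.20 (SE, limma adjusted p = 1), although as deposited it averaged 0.259 ± 0.0459 in sucrose and 0.117 ± 0.0213 in water (SD, n = 6 each; log2 1.15, adjusted p = 4.7e-05). Its sign changed without sucrose array 2 (0.13), water array 1 (0.04) or water array 2 (0.02), and without numbers 1 and 2 it passed as higher at 0.33 (adjusted p = 0.0140).

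Of 36 light-harvesting and photosystem subunit genes, 3 were measured and 1 rose. PSBW, a small subunit of photosystem II, was higher by 0.61 ± 0.14 after quantile normalization (SE, limma adjusted p = 0.00527), by 0.05 as deposited (adjusted p = 0.664) and passed as lower at -1.05 with median centring (adjusted p = 1.3e-05). After quantile normalization it passed within numbers 1 and 2 (1.07, limma adjusted p = 0.0214). It did not pass within numbers 3 and 4 (0.30, adjusted p = 0.112) or 5 and 6 (0.46, adjusted p = 0.0524). The antenna gene LHB1B2 differed by 0.14 ± 0.12 (limma adjusted p = 0.418) and PSBY by -0.20 ± 0.11 (limma adjusted p = 0.188). With median centring both passed as lower, LHB1B2 at -1.18 (limma adjusted p = 0.00236) and PSBY at -1.08 (6.4e-04), and PSBY also passed as lower within numbers 1 and 2 (-0.51, adjusted p = 0.0122). Of 20 genes for assembly and repair of photosystem II, the 1 measured was AT1G54500, which encodes a rubredoxin-like protein. It fell by 0.24 (SE 0.07, limma adjusted p = 0.0238) after quantile normalization, but as deposited it averaged 0.752 ± 0.0486 in sucrose and 0.540 ± 0.0323 in water (SD, n = 6 each) and was higher by 0.48 (adjusted p = 1.8e-05). With cyclic loess its difference shrank to -0.09 and did not pass (limma adjusted p = 0.118). Its call was also lost without sucrose array 2 (adjusted p = 0.0510), without numbers 1 and 2 (0.0695), with the dimmest 25% of probes left out (0.0749) and when number pairs were a random block (0.0508).

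**Figure D5:**
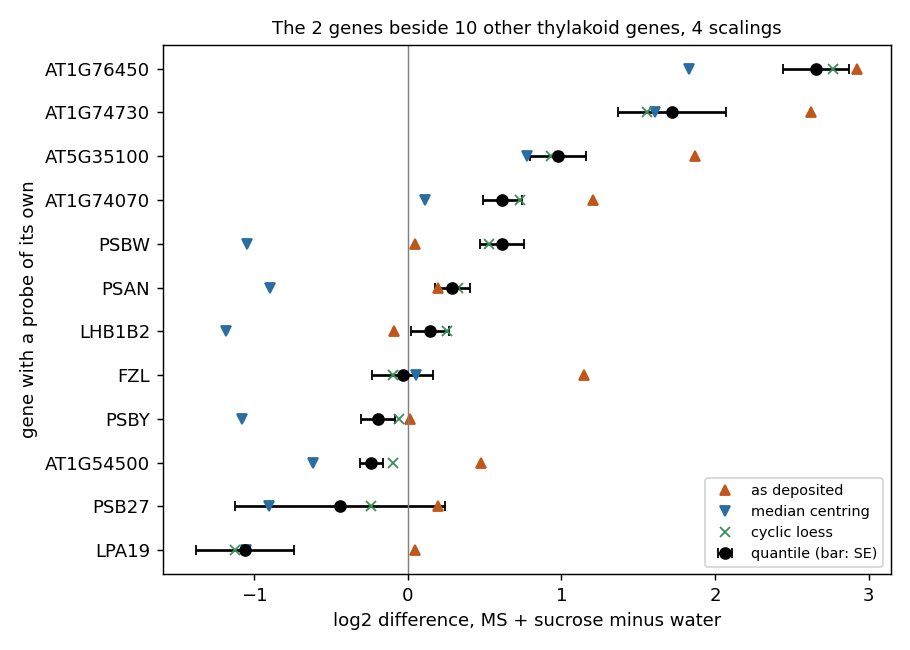
Log2 difference, MS with sucrose minus water (x axis), of AT1G76450, AT1G74730 and the 10 other measured genes of the lists (y axis) under 4 scalings, with the SE of the quantile-normalized fit as bars. AT1G76450, AT1G74730 and AT5G35100 lie well to the right of 0 under each scaling, AT1G74070 lies between 0.11 and 1.21, and for the rest the sign depends on the scaling.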

How the data were processed

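The authors deposited 1 intensity per probe and array on a linear scale, never negative, with exact zeros and a highest value of 100 on each array. Reading, correction and scaling of spots are not given in the sources used here. The unit rests on the range of the values. A 0 does not show that a transcript is missing. The number of arrays limits the precision.

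Arrays were brought to 1 median, lower values were raised to a floor of 0.0531 (the 5 percent quantile of positive scaled values), and log2 values were quantile normalized. For log2 differences as deposited, the floor was the same quantile of the unscaled positive values. Differences and SEs come from limma 3.58.1 (R 4.3.3) over 3439 probes, with Benjamini-Hochberg adjustment, and figures from matplotlib 3.10.9. The steps were run on simulated data with independent arrays and few changed probes. Those data held no difference in array medians between groups and no resemblance of consecutive arrays, so these features were not covered. Of the probes, 692 had 1 gene, 870 several and 1877 were not listed. A table of assembly TAIR10.1 held 690 of the 692 and was used for names alone.

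The members and lists were chosen with earlier results of these data known. The named genes are the members, every list gene with a probe of its own (the brightest), the 5 genes most correlated with each member and the 2 on either side of it by difference. Alternatives were other scalings, floors and filters, the replicate block, number pairs averaged, as a random block or alone, array weights, a threshold of 0.01 and leaving out arrays. After subtraction of group means, arrays with equal numbers correlated at 0.19 to 0.43 in all 6 pairs. The numbers were treated as pairing only in the swap test, the same-number differences and the replicate block. The main fit, with its SEs, adjusted p-values and counts, was unpaired. The pairing comes from the data and not from the labels.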

Additional observations from a re-analysis of the deposited data

Results flagged for a closer look

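Of 46 sets of 6 arrays searched (a named gene, an array median or a share of zeros in 1 group), 3 held an array set apart from its neighbour by more than the 95% critical value of Dixon's test for 6 values, and chance sets apart about 1 set in 20. For AT1G74730, water array 3 was at the floor, at -4.23 on the log2 scale, while the other 5 water arrays spanned -2.70 to -2.17 (a gap of 0.743 of the range). For LPA19 (AT1G05385), sucrose array 3 was at -4.18 against -2.61 to -1.99 on the other 5 sucrose arrays (0.713). For FZL (AT1G03160), sucrose array 2 was at -3.28 against -2.41 to -2.16 on the other 5 (0.773).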

How the results depend on the processing

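Neither AT1G76450 nor AT1G74730 changed direction under any alternative run. The difference of AT1G76450 moved from 2.66 by more than the spread between arrays with median centring (1.83), within numbers 3 and 4 (3.17) and within numbers 5 and 6 (1.80), and that of AT1G74730 from 1.72 as deposited (2.63) and with 0.2 added (0.99). With 1 array left out they ranged over 2.53 to 2.79 and 1.41 to 1.83. The replicate block left both differences as they were, with SEs of 0.26 and 0.31, took the count of 1436 called probes to 1383 and changed no call of a list gene. That count was 730 with number pairs averaged (328 higher, 402 lower), 750 within numbers 3 and 4 (378 and 372), 674 within numbers 5 and 6 (326 and 348) and 1323 to 1470 with 1 array left out. Its 705 higher and 731 lower became 1848 and 227 as deposited. The 5 list genes called became 0 with number pairs averaged, 3 with number pairs as a random block or at an adjusted p of 0.01, 2 within numbers 3 and 4 or 5 and 6, and 4 to 6 with 1 array left out. Of 260 values of list genes under alternatives, 207 kept sign and side of the threshold, 24 lost it, 5 gained it and 24 changed sign. With median centring the sign changed for PSAN (-0.90), FZL (0.0546), LHB1B2 (-1.18) and PSBW (-1.05), and as deposited for PSB27 (0.19), LPA19 (0.0434), FZL (1.15), LHB1B2 (-0.0893), PSBY (0.0142) and AT1G54500 (0.48). Within numbers 3 and 4 it changed for PSAN (-0.0192), PSB27 (0.21), FZL (0.28) and LHB1B2 (-0.13), within numbers 5 and 6 for PSB27 (0.38), FZL (0.37) and PSBY (0.0537), with array weights for FZL (0.0409), and without numbers 1 and 2, an alternative chosen after seeing the data, for PSB27 (0.30) and FZL (0.33). With 1 array left out PSB27 ranged over -0.69 to 0.0420 and FZL over -0.0916 to 0.13. The cause was not tested. Promoter motifs were not examined. Intensity near the floor limits AT1G74730 in water.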
